A study of Mus musculus with 8 samples.

Results

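The miR-148 and miR-152 family has 3 members on the Agilent mouse miRNA array: mmu-miR-148a-3p, mmu-miR-148b-3p and mmu-miR-152-3p, written below without the species prefix. They were chosen by name, as the non-control miRNAs that carry these names in the array's own annotation, and they are 3 of the 1881 miRNAs measured. All 3 were detected in mouse kidney on all 8 arrays, and 0 of 3 passed the test between LPS and sham kidneys, where 40.2% of the 338 miRNAs tested did. The kidneys came from a mouse model of septic acute kidney injury. In the LPS group (4 arrays, replicates 6, 10, 11 and 12), lipopolysaccharide, a component of the outer membrane of Gram-negative bacteria, was injected intraperitoneally (10 µg for each g of body weight) and the kidneys were collected after 24 h. The sham group (4 arrays, replicates 5, 6, 7 and 8) received saline in its place. The labels give no strain, genotype, sex or age for either group, and do not state whether the arrays came from separate animals. The p-values therefore describe only the variation from array to array, which may be technical. The arrays read whole kidney, in which fewer cells of a type and less RNA per cell cannot be told apart.

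MicroRNAs guide the silencing machinery to messenger RNAs, mainly through the seed, the bases near their 5′ end that pair with the target. Members of one family share the seed and are therefore expected to share many targets. The family is known for repressing DNA methyltransferases: miR-148a and miR-152 have been reported to target DNMT1, which copies methylation marks at replication, and miR-148 to target DNMT3B, which sets new marks, mostly in human cells. In mouse dendritic cells exposed to LPS, all 3 members are known to repress the kinase CaMKII alpha and to dampen cytokine output and antigen presentation. miR-148a is also an abundant liver miRNA that acts on the LDL receptor.

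The mature sequences are shown because they set both what the members share and what the probes must tell apart. They are from RefSeq (GRCm38.p6), 5′ to 3′, with the seed, bases 2 to 8, in capitals.
miR-148a-3p: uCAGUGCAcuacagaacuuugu
miR-148b-3p: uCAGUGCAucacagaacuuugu
miR-152-3p: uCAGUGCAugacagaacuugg
Of the 1679 mature mouse sequences in the RefSeq table, these 3 alone hold this seed at bases 2 to 8. Counting from 1 at the 5′ end and giving the base of the first-named member first, miR-148a-3p and miR-148b-3p differ by C9U and U10C, with 20 of 22 bases identical. miR-148a-3p and miR-152-3p differ by C9U, U10G and U20G, with 18 of 21 compared bases identical. miR-148b-3p and miR-152-3p differ by C10G and U20G, with 19 of 21 identical. The differences therefore sit just after the seed and near the 3′ end.

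The 3 genes are on different chromosomes. In GRCm38.p6 the mature miR-148a-3p is at chr6:51269829-51269850 on the minus strand, inside the predicted gene Gm38821. The mature miR-148b-3p is at chr15:103285185-103285206 on the plus strand, inside Copz1, a gene for a zeta subunit of the COPI vesicle coat. The mature miR-152-3p is at chr11:96850439-96850459 on the plus strand, inside Copz2, the gene of the other zeta subunit. The RefSeq table used here gives the extent of each gene and not its exons, so exon or intron was not looked up.

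Each member is read by 2 probes, and each probe by 15 spots, which makes 90 spots of the family on every array. The paired stretches of the probes are shown because the assay has only these bases to separate the members. They run 5′ to 3′ and are complementary to the miRNA, with capitals at the positions where the member differs from at least 1 other member.
miR-148a-3p, probe A_54_P1273: AcAaagttctgtAGtgcac
miR-148a-3p, probe A_54_P1274: AcAaagttctgtAGtgcact
miR-148b-3p, probe A_54_P1381: AcAaagttctgtGAtgca
miR-148b-3p, probe A_54_P1382: AcAaagttctgtGAtgcac
miR-152-3p, probe A_54_P2333: cCaagttctgtCAtgc
miR-152-3p, probe A_54_P2334: cCaagttctgtCAtgca
The 2 probes of a member differ by 1 base at the end that pairs with the seed. Against miR-148b-3p, the miR-148a-3p probes have 2 mismatches, and against miR-152-3p they have 3 mismatches and 1 unpaired base. The miR-148b-3p probes have 2 mismatches to miR-148a-3p, and 2 mismatches and 1 unpaired base to miR-152-3p. The miR-152-3p probes have 3 mismatches to miR-148a-3p and 2 to miR-148b-3p. How much of a probe's signal comes from another member was not tested.

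Over the whole series, 15.8% to 17.5% of the 56430 non-control spots of an array were flagged well above background by the scanner software, 336 to 375 miRNAs were detected per array, and no non-control spot was saturated. All 5 listed kidney tubule miRNAs were detected on all 8 arrays. The levels of each list were summed on the linear scale, and the log2 of the sum is given. For the tubule miRNAs it was 5.75 to 5.94 in LPS kidneys and 5.90 to 6.02 in sham kidneys. For the 5 leukocyte miRNAs it was 1.63 to 1.76 in LPS kidneys and 0.94 to 1.44 in sham kidneys. For the 2 erythroid miRNAs it was 1.01 to 3.78 in LPS kidneys and -0.97 to 1.64 in sham kidneys. The leukocyte miRNAs did not move as one. The log2 difference, LPS minus sham, was 1.68 for miR-155-5p and 0.86 for miR-223-3p, which passed the test. It was 0.26 for miR-142a-3p, 0.13 for miR-142a-5p and -0.22 for miR-150-5p, which did not. In each sum the brightest probes weigh most. The hepatocyte miRNA miR-122-5p was detected on no array. The part of cell makeup in the results on the family was not tested. On the slide, LPS arrays took row 2 and sham arrays row 1, and an effect of the row cannot be told apart from one of LPS. Of 338 miRNAs tested, 50 were called higher and 86 lower in LPS kidneys. That split depends on the scaling: it was 55 higher and 53 lower with the 75th percentile taken over all probes, 57 and 49 without scaling, 65 and 66 after cyclic loess, and 34 and 155 when arrays were scaled to the labelling spike-ins. The last of these moved the median log2 difference of all tested miRNAs to -0.23, from -0.08 as reported, so differences below are best read against that median.

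Levels are log2 signals after division by the array's 75th percentile, so that 0 is a signal equal to that percentile. A level compares arrays for 1 miRNA and ranks no miRNA above another, because probes differ in how brightly they read the same amount of RNA.

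miR-148a-3p was the member that varied. Its log2 level was -2.07, -1.39, -1.49 and -1.06 in LPS replicates 6, 10, 11 and 12, and -2.09, -1.24, -2.17 and -1.95 in sham replicates 5, 6, 7 and 8. The groups overlap: LPS replicate 6 lies among the low sham arrays, and sham replicate 6 lies among the high LPS arrays, so the 8 values fall between -2.17 and -1.95 on 4 arrays and between -1.49 and -1.06 on the other 4. Both arrays sat with their own groups for miR-21a-5p, a miRNA known to increase in injured kidney, whose log2 level was 6.63 in LPS replicate 6 and 6.70 to 6.88 in the other LPS arrays, and 4.61 in sham replicate 6 and 4.37 to 4.55 in the other sham arrays. miR-21a-5p was picked with earlier results of these data known, so its values are a description. A mix-up of arrays was not tested.

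The mean log2 level of miR-148a-3p was -1.50 ± 0.42 in LPS kidneys and -1.86 ± 0.42 in sham kidneys (SD, n = 4 each). The difference of 0.36 on the log2 scale (SE 0.26, 95% confidence interval -0.23 to 0.95), or 1.28-fold, was smaller than the spread between arrays of 1 group and did not pass limma's test (Benjamini-Hochberg adjusted p = 0.288). The interval runs from 0.85-fold to 1.93-fold, so 4 arrays per group left the direction of any change unsettled. The 2-sided exact permutation test gave p = 0.314, with 0.0286 the smallest value that 4 against 4 arrays allow. The size of the difference rests on single arrays: it was 0.57 without sham replicate 6 (adjusted p = 0.0851), 0.55 without LPS replicate 6 (adjusted p = 0.0998) and 0.21 without LPS replicate 12 (adjusted p = 0.554). It was 0.17 with normexp background correction (adjusted p = 0.340 by limma) and 0.21 with scaling to the labelling spike-ins (adjusted p = 0.404 by limma). The labelling spike-ins also moved the median over all tested miRNAs, to -0.23 from -0.08 as reported. The normexp setting adds an offset of 50 intensity units to every spot, where the probes of miR-148a-3p read 48.5 to 133 units. Such an offset by itself shrinks the log2 differences of dim probes.

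Both probes of miR-148a-3p showed the same pattern before any scaling. Probe A_54_P1273 read 52.4, 89.8, 82.9 and 104 intensity units in LPS replicates 6, 10, 11 and 12, and 49.2, 86.2, 48.5 and 56.9 units in sham replicates 5, 6, 7 and 8. Probe A_54_P1274 read 69.2, 115, 105 and 133 units in LPS replicates 6, 10, 11 and 12, and 64.4, 113, 64.8 and 72.5 units in sham replicates 5, 6, 7 and 8. The same 4 arrays, LPS replicates 10, 11 and 12 and sham replicate 6, are therefore high by either probe. The 15 spots of a probe on 1 array had a coefficient of variation of 4.24% to 13.2%, which measures the reading of that array and not the spread between kidneys. The log2 differences between LPS and sham kidneys were 0.37 by A_54_P1273 (adjusted p = 0.282, limma over 633 probes) and 0.35 by A_54_P1274 (adjusted p = 0.298). Between the LPS and the sham array of the same slide column, the log2 difference was 0.02, -0.15, 0.68 and 0.90 in columns 1, 2, 3 and 4. Arrays matched by column thus gave no single direction of the LPS difference, and an effect of slide position was not tested.

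**Figure D1:**
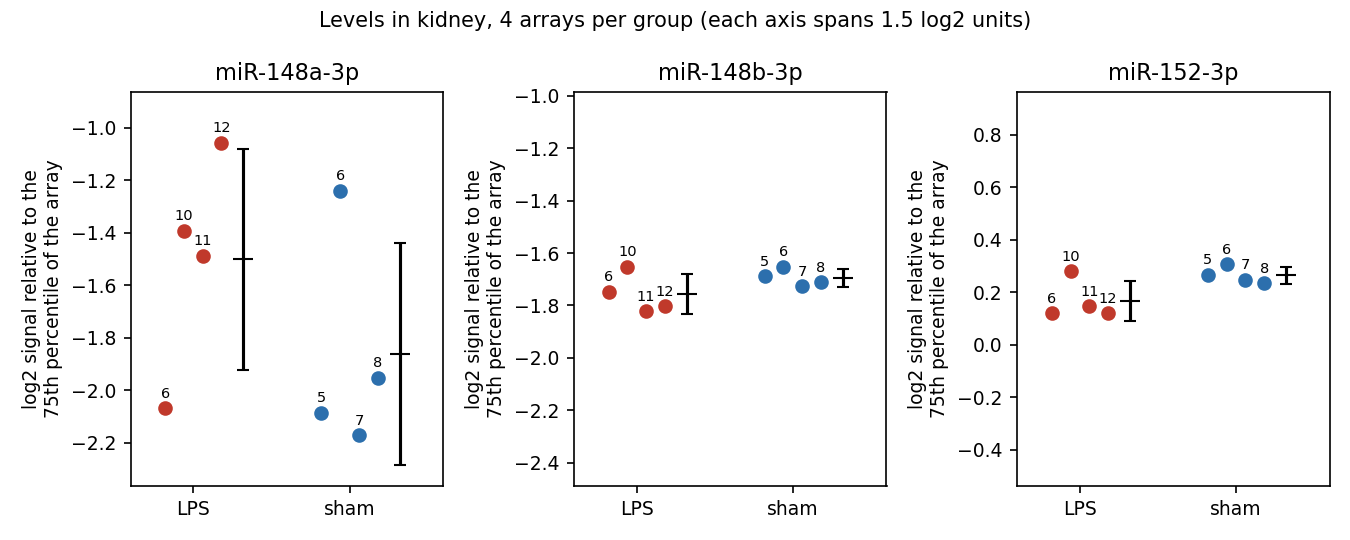
Log2 level of each family member on every array, after division by the array's 75th percentile, with LPS arrays on the left and sham arrays on the right of each panel. Points are arrays with their replicate numbers, bars are mean and SD (n = 4), and each vertical axis spans 1.5 log2 units; miR-148a-3p runs from -2.17 to -1.06 with overlapping groups, while the other members stay within 0.19.

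miR-148b-3p was nearly level across the arrays. Its log2 level was -1.75, -1.65, -1.82 and -1.80 in LPS replicates 6, 10, 11 and 12, and -1.69, -1.65, -1.73 and -1.71 in sham replicates 5, 6, 7 and 8. LPS replicate 10 and sham replicate 6 have the highest values and the groups overlap. The means were -1.76 ± 0.08 in LPS kidneys and -1.70 ± 0.03 in sham kidneys (SD, n = 4 each). The log2 difference of -0.06 (SE 0.05, 95% confidence interval -0.19 to 0.06) did not pass limma's test (adjusted p = 0.403), and the exact permutation test gave p = 0.229. The interval, 0.88-fold to 1.05-fold, bounds any change on this scale. The sign depends on the scaling. By limma, the difference was 0.02 without scaling (adjusted p = 0.882). With scaling to the labelling spike-ins it was -0.21 and passed the test (adjusted p = 0.0443 by limma). In that setting 189 of 338 miRNAs were called, and the median over all tested miRNAs was -0.23.

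The probes of miR-148b-3p differ in brightness. A_54_P1381 read 26.0 to 31.5 units over the 8 arrays, with 93.3% to 100% of its spots well above background, and A_54_P1382 read 114 to 140 units with 100% of its spots above. Their log2 differences between LPS and sham kidneys were -0.15 (adjusted p = 0.117) and -0.04 (adjusted p = 0.582). The dimmer probe had the wider spot spread, with a coefficient of variation of 11.9% to 20.8%, against 5.44% to 9.03% for the brighter probe.

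miR-152-3p was also nearly level, with slightly lower values on 3 of the LPS arrays. Its log2 level was 0.12, 0.28, 0.15 and 0.12 in LPS replicates 6, 10, 11 and 12, and 0.27, 0.31, 0.25 and 0.23 in sham replicates 5, 6, 7 and 8. LPS replicate 10 lies inside the sham range, and the other LPS arrays lie below every sham array. The means were 0.17 ± 0.08 in LPS kidneys and 0.26 ± 0.03 in sham kidneys (SD, n = 4 each). The log2 difference was -0.10 (SE 0.05, 95% confidence interval -0.22 to 0.03, adjusted p = 0.187 by limma, exact permutation p = 0.114), close to the median of -0.08 over all tested miRNAs. The interval runs from 0.86-fold to 1.02-fold. The call turns on 1 array, on the array weights and on the scaling. By limma, the difference was -0.14 without LPS replicate 10 (adjusted p = 0.0351) and -0.11 with array weights (adjusted p = 0.0416). It was -0.24 with scaling to the labelling spike-ins (adjusted p = 0.0228 by limma). In that setting 189 of 338 miRNAs were called, and the median over all tested miRNAs was -0.23.

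By probe, miR-152-3p gave log2 differences of -0.11 for A_54_P2333 (adjusted p = 0.167) and -0.09 for A_54_P2334 (adjusted p = 0.232). Their signals were 241 to 292 units and 295 to 361 units over the 8 arrays, with spot variation of 2.72% to 6.30%. Within slide columns 1, 2, 3 and 4, the log2 difference of miR-152-3p between the LPS and the sham array was -0.15, -0.03, -0.10 and -0.12, and that of miR-148b-3p was -0.06, 0.00, -0.09 and -0.09.

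**Figure D2:**
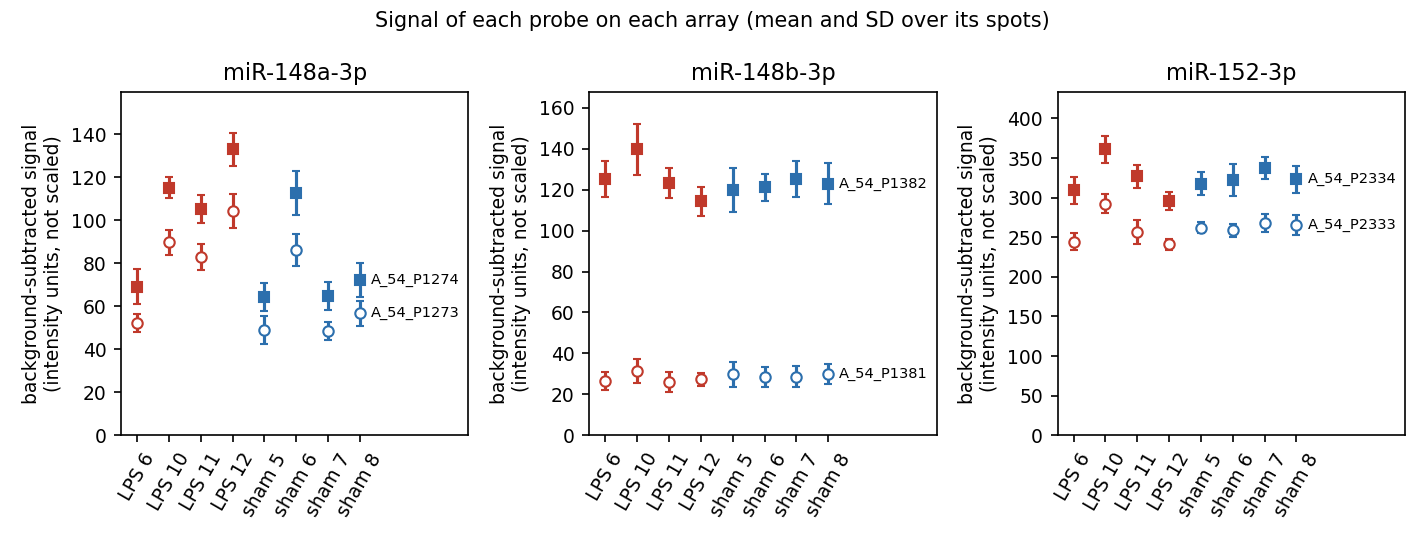
Background-subtracted signal of the 2 probes of each member on every array, in intensity units before scaling, with LPS arrays left of sham arrays. Symbols are means and bars the SD over up to 15 spots, open circles for one probe and filled squares for the other; both miR-148a-3p probes are high on LPS replicates 10, 11 and 12 and on sham replicate 6, and the miR-148b-3p and miR-152-3p probes change little between arrays.

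The spread between arrays of the same group set miR-148a-3p apart from the other members as a description. Its residual SD was 0.42 on the log2 scale, larger than that of 96.7% of the 338 tested miRNAs, whose median was 0.12. The residual SD of miR-148b-3p and of miR-152-3p was 0.06, at percentiles 7.40 and 7.99. Over all 8 arrays, the log2 level of miR-148a-3p spanned 1.11, or 2.16-fold, and those of miR-148b-3p and miR-152-3p spanned 0.17 and 0.19.

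The responses of the members to LPS were compared in pairs, as the difference between their log2 levels on each array, with 2-sided exact permutation tests adjusted over the 3 pairs. The response of miR-148a-3p exceeded that of miR-148b-3p by 0.42 (95% confidence interval -0.30 to 1.14, adjusted p = 0.286 by exact permutation). It exceeded that of miR-152-3p by 0.46 (interval -0.25 to 1.16, adjusted p = 0.286 by exact permutation). miR-148b-3p and miR-152-3p differed by 0.04 (interval -0.02 to 0.09, adjusted p = 0.286 by exact permutation). No pair passed the threshold. The smallest p that this exact test allows is 0.0286, which adjustment over 3 pairs raises above 0.05 for a single pair. A single pair could therefore not be called, whatever its values. Without LPS replicate 12, the differences of miR-148a-3p were 0.26 from miR-148b-3p and 0.29 from miR-152-3p. With normexp background correction, whose offset of 50 intensity units shrinks differences of dim probes, they were 0.23 and 0.26. The difference between miR-148b-3p and miR-152-3p was 0.019 without LPS replicate 6. The intervals for miR-148a-3p leave room for a wide range of unequal responses, and the interval between miR-148b-3p and miR-152-3p is narrow.

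miR-148b-3p and miR-152-3p moved together over the 8 arrays. Pearson's r of their log2 levels was 0.89 (exact permutation p = 0.00357, adjusted over 3 pairs 0.0107) and Spearman's rho was 0.88 (exact permutation p = 0.00724, adjusted 0.0217). Without the 2 arrays farthest from the median of miR-148b-3p, r was 0.85. It was 0.86 for deviations from the group means and 0.91 without scaling between arrays. After cyclic loess it was 0.76 and missed the threshold (adjusted p = 0.0524 by exact permutation). Both miRNAs had a higher r, 0.93 and above, with tested miRNAs outside the family, so the relation is not particular to the family. For miR-148a-3p, r was -0.11 against miR-148b-3p and -0.08 against miR-152-3p (adjusted p = 0.866 each by exact permutation; rho 0.02 and -0.05). For deviations from the group means these were 0.15 and 0.34. All values on an array share that array's scaling factor and labelling reaction, and the sign of both coefficients of miR-148a-3p changed with the scaling.

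For each member, the 3 tested miRNAs most like it were taken as those with the highest r over the 8 arrays among 337 candidates. Because they are the highest of so many, the coefficients are descriptions. For miR-148a-3p they were miR-125b-5p, a relative of the worm miRNA lin-4, with r 0.98, and miR-141-3p and miR-200c-3p, epithelial miRNAs of the miR-200 family that repress Zeb1 and Zeb2, with r 0.94 and 0.93. Without the 2 arrays farthest from the median of miR-148a-3p, r was 0.98, 0.93 and 0.96. Over 14 alternatives, r with miR-125b-5p ran from 0.64 (scaling to the labelling spike-ins) to 0.98, with miR-141-3p from 0.87 to 0.98 and with miR-200c-3p from 0.87 to 0.94. The values of miR-148a-3p lie on either side of a gap, with 4 arrays on each side, and the relation within each side was not tested.

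miR-125b-5p had log2 levels of 2.81, 3.03, 2.99 and 3.05 in LPS replicates 6, 10, 11 and 12, and 2.79, 3.04, 2.75 and 2.78 in sham replicates 5, 6, 7 and 8. The same arrays are high and low as for miR-148a-3p, over a span of 0.30 in place of 1.11. miR-200c-3p, with a span of 0.67, ranged from 0.40 to 0.91 in LPS kidneys and from 0.25 to 0.62 in sham kidneys. None of the 3 was called between the groups: the log2 differences were 0.13 for miR-125b-5p (adjusted p = 0.255), 0.20 for miR-141-3p (adjusted p = 0.199) and 0.30 for miR-200c-3p (adjusted p = 0.0802), by limma. As they were picked for likeness to an uncalled member on these arrays, this is no separate result.

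The miRNAs most like the other members were different ones. For miR-148b-3p they were miR-219a-5p (r 0.96), miR-140-3p (r 0.95) and miR-140-5p (r 0.93), the last 2 being both arms of a miRNA known for its role in cartilage. For miR-152-3p they were miR-151-5p (r 0.98), miR-345-5p (r 0.94) and miR-425-5p (r 0.93). Under 14 alternatives the lowest r was 0.61 for miR-219a-5p, 0.64 for miR-140-3p and 0.76 for miR-140-5p, and 0.95 for miR-151-5p, 0.74 for miR-345-5p and 0.78 for miR-425-5p. These 6 had log2 spans of 0.19 to 0.34 over the 8 arrays, and 0 of 6 were called between LPS and sham kidneys, beside 40.2% of all tested miRNAs. They were picked for likeness to uncalled members on these same arrays, so this count is no separate result. The groups overlapped for all but miR-425-5p, which was lower on every LPS array than on any sham array (adjusted p = 0.0513 by limma). Over all tested miRNAs, the groups did not overlap for 37.0%.

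**Figure D3:**
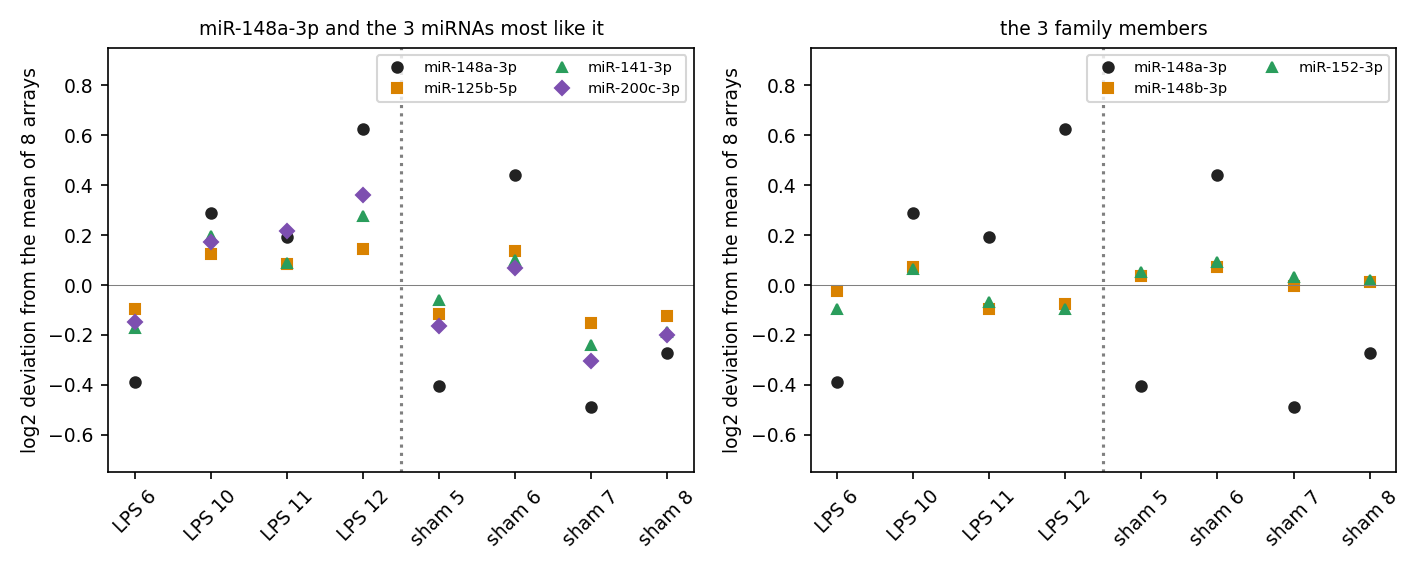
Log2 deviation of each miRNA from its own mean over the 8 arrays, with LPS arrays left of the dotted line and sham arrays right of it. The left panel shows miR-148a-3p with the 3 miRNAs most like it, all higher on LPS replicates 10, 11 and 12 and sham replicate 6; the right panel shows the 3 members, where miR-148b-3p and miR-152-3p stay near 0.

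The passenger arms of the 3 hairpins, miR-148a-5p, miR-148b-5p and miR-152-5p, gave no measurable signal. On all 8 arrays, 0% of their spots were well above background, and the means of their probes lay between -4.39 and 3.48 intensity units. They were not tested and no fold change is given.

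A shift of the family's seed by 1 base is found in the miR-130 and miR-301 group, whose members carry the same 7 bases at positions 1 to 7, shown here in capitals for the 3 that were detected.
miR-130a-3p: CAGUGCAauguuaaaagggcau
miR-301a-3p: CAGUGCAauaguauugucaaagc
miR-721: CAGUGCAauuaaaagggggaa
In all, 7 mature sequences in the RefSeq table have these bases at positions 1 to 7 and 0 have them at positions 3 to 9. The other 4, miR-130b-3p, miR-130c, miR-6341 and miR-6389, were detected on no array. miR-301b-3p, which had been expected in this group, was not among the 7 and is not reported. Of the 3 tested, 0 were called between LPS and sham kidneys, where 40.2% of all tested miRNAs were. The log2 difference was 0.07 for miR-130a-3p (adjusted p = 0.482), -0.06 for miR-301a-3p (adjusted p = 0.561) and -0.14 for miR-721 (95% confidence interval -0.94 to 0.66, adjusted p = 0.779). miR-721 was detected on 3 of the 4 sham arrays, and its sign turned to a difference of 0.24 without sham replicate 5 (adjusted p = 0.250).

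Other miRNAs reported to repress DNA methyltransferases, mostly in human cells, were set beside the family as a list of 8: miR-29a-3p, miR-29b-3p, miR-29c-3p, miR-101a-3p, miR-126a-3p, miR-143-3p, miR-185-5p and miR-342-3p. All 8 were detected on all arrays. In LPS kidneys 2 rose, where 14.8% of all tested miRNAs did, and 1 fell, where 25.4% did, and 5 did not pass the test. The median log2 difference of the list was 0.03, beside -0.08 for all tested miRNAs, and that of the 3 family members was -0.06. The sign of the list's median is not firm: leaving out 1 array gave -0.0047 (LPS replicate 10), 0.0087 (sham replicate 7) or up to 0.069 (LPS replicate 11), and it was -0.11 to 0.11 over all 27 alternatives.

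miR-185-5p, reported to target DNMT1, fell. Its log2 level was -0.17, -0.18, -0.38 and -0.39 in LPS replicates 6, 10, 11 and 12, and 0.30, 0.25, 0.29 and 0.25 in sham replicates 5, 6, 7 and 8. Every LPS array lies below every sham array. The log2 difference was -0.55 (SE 0.07, adjusted p = 5.46e-04 by limma), or 0.68-fold, and it passed the test under all 27 alternatives tried, with values of -0.70 to -0.44.

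miR-29a-3p and miR-29b-3p, which are known to repress DNMT3A and DNMT3B, rose slightly. miR-29a-3p had log2 levels of 4.62, 4.81, 4.62 and 4.78 in LPS replicates 6, 10, 11 and 12, and 4.47, 4.55, 4.49 and 4.31 in sham replicates 5, 6, 7 and 8. The groups do not overlap, as was so for 37.0% of the tested miRNAs. The log2 difference was 0.25 for miR-29a-3p (SE 0.07, adjusted p = 0.0308) and 0.23 for miR-29b-3p (SE 0.07, adjusted p = 0.0344), by limma. These calls are not firm: that of miR-29a-3p was lost under 8 of 27 alternatives, among them leaving out LPS replicate 10 or 12 or sham replicate 7 or 8 (adjusted p = 0.0510 to 0.0812), and that of miR-29b-3p under 11 of 27, among them leaving out any array but LPS replicate 11 (adjusted p = 0.0510 to 0.0943). The miR-29 members are close in sequence, and signal shared between their probes was not tested.

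**Figure D4:**
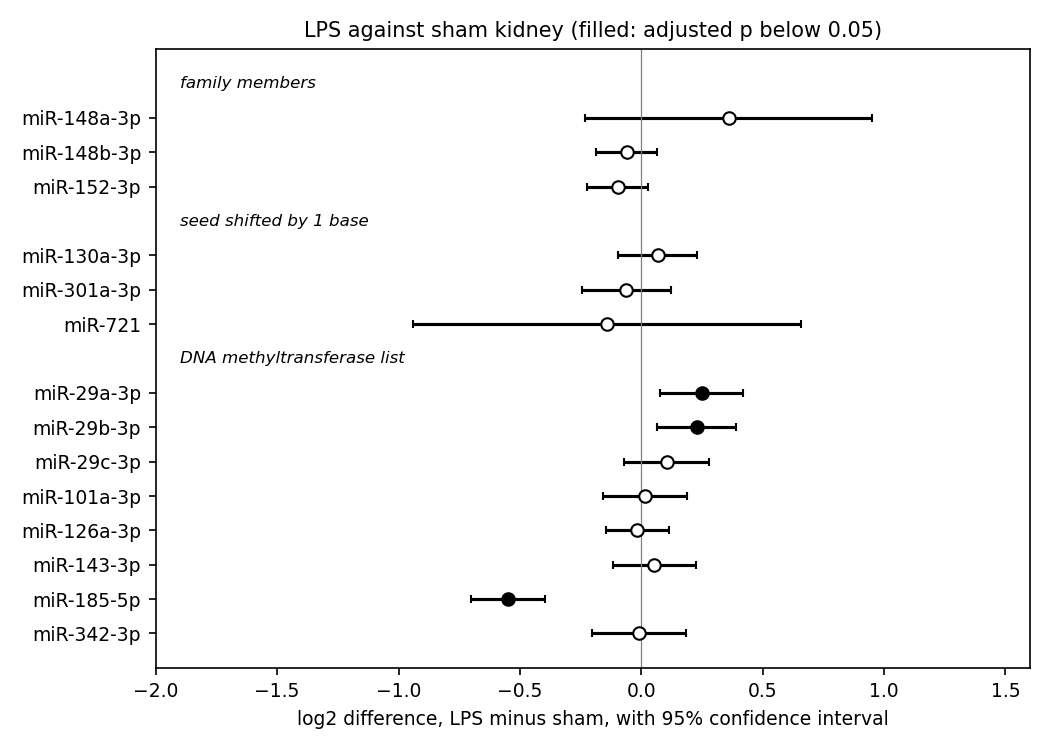
Log2 difference between LPS and sham kidneys with its 95% confidence interval (limma, 4 arrays per group) for the 3 family members, the 3 tested miRNAs with the seed shifted by 1 base, and the 8 listed miRNAs reported to repress DNA methyltransferases. Filled points have an adjusted p below 0.05: miR-29a-3p and miR-29b-3p are higher, miR-185-5p is lower, and the intervals of all 3 family members cross 0.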

How the data were processed

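Total RNA from 30 mg of kidney was labelled with Cy3 (100 ng per array), per the labels' protocols. The spot intensities deposited by the authors are scanner output of Agilent Feature Extraction 12.0.3.1, per the submitters' processing notes; they are background-subtracted and not scaled between arrays, per the file headers. The authors also deposited 1 linear ratio per miRNA and array. Once a factor for the array and a factor for the miRNA were allowed, 100% of these ratios matched the scanner's total signals to 0.01 log2 (306 miRNAs), so the table is linear and centred by miRNA; where its array factors come from was not stated in what was read here. Its column medians were 0.958, 0.960, 1.01 and 1.03 for LPS replicates 6, 10, 11 and 12, and 0.995, 1.06, 1.05 and 0.980 for sham replicates 5, 6, 7 and 8. It served as an alternative.

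Outlier spots were left out, probe means were divided by the array's 75th percentile over the 551 probes that were detected on all 8 arrays, and a miRNA's probes were then added up. Sums were floored at -4.68 on the log2 scale, the median over arrays of the lowest detected value. A miRNA was detected where over 50% of the spots of any probe were flagged well above background. To be tested, a miRNA had to be detected on all 4 arrays of LPS or of sham kidneys; 338 were, and were fitted with limma 3.58.1 in R 4.3.3 (lmFit, eBayes, 2-sided, Benjamini-Hochberg, threshold 0.05). Exact permutation tests and figures used Python 3.11.15 with scipy 1.17.1. The fit was tested on simulated data. The number of arrays limits the precision.

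Named are the members, their other arms, miRNAs with the seed shifted by 1 base and the listed miRNAs reported to repress DNA methyltransferases. Also named are the 3 tested miRNAs with the highest r to each member. miR-21a-5p was added to show how the arrays sat for a miRNA that separates the groups. The members, the lists and miR-21a-5p were chosen with earlier results of these data known. miR-143-3p and miR-126a-3p are also in the stroma and endothelium marker lists, of which 2 of 4 fell and 0 of 2 were called; of the tubule list 3 of 5 fell, of the leukocyte list 2 of 5 rose and of the erythroid list 2 of 2 rose, where 14.8% of all tested miRNAs rose and 25.4% fell.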

Additional observations from a re-analysis of the deposited data

Results flagged for a closer look

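Of 46 groups of 4 arrays examined, over the members, the listed miRNAs and the miRNAs most like the members, 5 held 1 array far from the other 3 by Dixon's criterion, where chance gives about 1 in 20, or 2.3. No family member was among them. Among miRNAs with the shifted seed, LPS replicate 10 was high for miR-130a-3p, with a log2 level of 3.17 where the other LPS arrays had 2.91 to 2.93, and for miR-301a-3p, with -0.51 where they had -0.82 to -0.77. For miR-125b-5p, the miRNA most like miR-148a-3p, sham replicate 6 stood at 3.04 and the other sham arrays at 2.75 to 2.79. miR-140-3p read 0.41 on sham replicate 7, below 0.46 on the other sham arrays. miR-101a-3p read 1.99 on sham replicate 5, below 2.07 to 2.08 on the others.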

How the results depend on the processing

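Each miRNA result was recomputed under up to 27 alternatives, 26 listed at the outset and 1 (scaling to the labelling spike-ins) chosen after seeing the data. For a member, changing the filter, the floor, the eBayes options or the column block leaves the log2 difference as it was. Its sign is fixed in advance there, and only the adjusted p can change. miR-148a-3p stayed positive and uncalled in 27 of 27 (0.17 to 0.57; 0.21 to 0.57 when 1 array was left out). miR-148b-3p turned to 0.016 without scaling and was called at -0.21 with the labelling spike-ins; leaving out 1 array gave -0.10 to -0.04. miR-152-3p was called at -0.11 with array weights and -0.24 with the labelling spike-ins, and ranged from -0.14 (called, without LPS replicate 10) to -0.081 with 1 array left out. Pair differences kept their sign and stayed uncalled in 22 of 22, at 0.23 to 0.61 for miR-148a-3p less miR-148b-3p, 0.26 to 0.65 for miR-148a-3p less miR-152-3p and 0.0045 to 0.052 for miR-148b-3p less miR-152-3p. As a single pair cannot pass the exact test after adjustment, staying uncalled says little about a pair.

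By probe, A_54_P1381 was called at -0.29 with the labelling spike-ins and ranged from -0.19 (called, without LPS replicate 10) to -0.10 with 1 array left out. A_54_P1382 turned to 0.016 with the all-probe percentile, 0.036 without scaling and 0.016 after cyclic loess, and was called at -0.22 after quantile normalization. A_54_P2333 was called at -0.19 (quantile), -0.25 (labelling spike-ins) and -0.12 (array weights), and ranged from -0.15 (called, without LPS replicate 10) to -0.089 with 1 array left out. A_54_P2334 was called at -0.24 with the labelling spike-ins.

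miR-130a-3p turned to -0.080 with the labelling spike-ins, miR-301a-3p to 0.015 without scaling and miR-721 to 0.24 without sham replicate 5 (range -0.36 to 0.24 with 1 array left out). The r of miR-148a-3p turned positive with the all-probe percentile (0.31 against miR-148b-3p, 0.27 against miR-152-3p), in the deposited ratio table (0.070 and 0.083) and, against miR-152-3p, after quantile normalization (0.16). Members called higher in the list of 8 numbered 0 to 3, and its median ran from -0.11 to 0.11.

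Of the 136 miRNAs called as reported, the count was 60 without a filter on dim probes, 80 with slide column as a block and 88 to 151 with 1 array left out. Those called higher were 29 without a filter and 33 to 54 with 1 array left out. Those called lower were 53 (all-probe percentile), 49 (no scaling), 31 (no filter), 45 (column block), 53 (deposited table), 155 (labelling spike-ins) and 52 to 105 with 1 array left out. The cause of these shifts was not tested, except that the unfiltered run adjusts over 1881 miRNAs.

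The labels name no pairs of LPS and sham arrays, and the groups share only replicate number 6, so arrays were not paired by label. Slide column, which holds 1 array of each group, was the only matching used, as the block above. Pair differences and correlations were not rerun with the column block, array weights or other options of the fit. Limits: 4 arrays per group leave wide intervals for miR-148a-3p, an effect of slide row cannot be told apart from one of LPS, and the dimmest family probe, A_54_P1381, lies nearest to background.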
